A study of Saccharomyces cerevisiae with 72 samples.

Results

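The mitochondrial ribosomal protein genes of Saccharomyces cerevisiae were taken as every gene whose symbol is MRPL, MRPS, MRP or RSM followed by a number. These symbols selected 68 probe sets for 67 genes, of 5656 named genes and 9335 probe sets on the array. The samples were 72 Affymetrix arrays of whole-culture RNA from 6 strains, with 4 arrays for each genotype and treatment. The strains carried deletions of GCN2 (KY654), GCN4 (KY656), GLN3 (KY640), GCN2 with GLN3 (KY641) or GCN4 with GLN3 (KY643), or none of these (wild type, KY652). Cultures received 3-aminotriazole (3-AT, 10 mM) or rapamycin (200 nM) and were collected after 1 h, or stayed untreated, in medium with 2% dextrose, 0.5% ammonium sulfate and every amino acid except histidine, which all groups shared.

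Mitochondria of budding yeast carry their own ribosome, which makes a handful of hydrophobic subunits of the respiratory chain and ATP synthase. Nearly all of its proteins are encoded in the nucleus, translated in the cytosol and imported, so their mRNAs can be measured beside those of the cytosolic ribosome. 3-AT inhibits the histidine enzyme His3 and starves cells of histidine, which activates the kinase Gcn2 and, through it, translation of the activator Gcn4. Rapamycin inhibits TOR complex 1, which lowers transcription for the cytosolic ribosome and lets the GATA factor Gln3 enter the nucleus. The comparisons address how each drug changed these mRNAs and whether GCN2, GCN4 or GLN3 was needed.

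Of the 67 genes, 65 carry a systematic ribosomal protein name in the reference, 38 of the large subunit and 27 of the small subunit. A family shared with bacteria is named for 24 of the large and 17 of the small subunit proteins, and the other 14 and 10 are proteins named only for the mitochondrial ribosome. The 2 genes with no such name are MRP8, whose product is no longer regarded as a ribosomal protein, and RSM22, which encodes a methyltransferase-like protein associated with the small subunit. All 67 passed the filter on dim probe sets, and 41 lay above background (the 30th percentile of the array) on all 72 arrays. MRPL44 has a second, dimmer probe set, which lay above background on 37 arrays and was not used.

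The labels were checked on the deleted genes first. GCN4 had a signal of 3.85 to 86.8 on the 24 arrays of strains that lack it, against 8079.9 to 23622 on the other 48, and GLN3 had 0.416 to 39.4 on 36 arrays against 124 to 870 on 36. The GCN2 probe set lay at 74.9 to 226 on the 24 arrays of GCN2 deletions, 22 of them above background, against 81.5 to 391 on the other 48, so it does not check the GCN2 label. On 3 arrays the 3′ to 5′ signal ratio of actin was above 10 (replicate 1 of gcn2 gln3 with 3-AT, replicate 1 of gcn2 gln3 with rapamycin and replicate 2 of gcn4 gln3 with rapamycin), against 1.31 to 5.03 on the other 69. The last of these had a median log2 signal over the 67 genes of 7.86, against up to 10.15 on the other arrays of its group. The main counts are therefore also given without these 3 arrays, and whether RNA quality shaped any one result was not tested further.

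**Figure D1:**
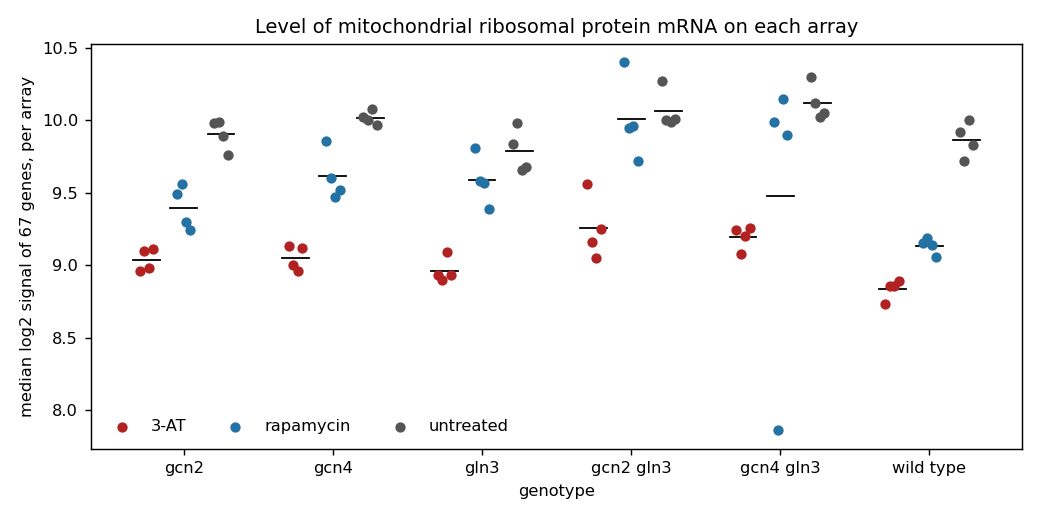
Median log2 signal of the 67 genes on each of the 72 arrays (points), by genotype on the horizontal axis and treatment in colour, with the mean of each 4 arrays as a line. In wild type the arrays lie at 8.73 to 8.89 with 3-AT and 9.06 to 9.19 with rapamycin, below the untreated arrays at 9.72 to 10.00. In gcn2 gln3 the rapamycin arrays overlap the untreated ones, and 1 rapamycin array of gcn4 gln3 lies far below its group at 7.86.

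In wild type, 3-AT lowered 46 of the 67 mRNAs and raised none at an adjusted p under 0.05. A fall was called for 13.6% and a rise for 22.2% of all 6869 probe sets tested. The median log2 change of the genes was -0.89 (quartiles -1.34 and -0.59), against 0.09 over all probe sets, and 65 of the 67 lay below 0. Changes are differences of log2 signal, drug minus untreated, with their standard error from limma (n = 4 arrays each). Without the 3 arrays named above, none of which is wild type, the median residual SD over probe sets was 0.277, against 0.407 with them, and 60 genes were called lower, including all 46, while 22.8% of all probe sets were called lower. A signal is a share of the RNA of a whole culture, so less mRNA in every cell and less in some of the cells cannot be told apart.

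The deepest falls were in genes of both subunits. MRPL51, which encodes the mitochondria-specific large subunit protein mL43, had signals of 186, 334, 299 and 241 with 3-AT, against 1295, 1139, 1559 and 786 untreated. MRPL19, for uL11m at the base of the ribosomal stalk, had 226, 213, 232 and 178 with 3-AT, against 1003, 841, 912 and 954 untreated. MRPL31, for the mitochondria-specific mL60, had 208, 213, 204 and 177 with 3-AT, against 990, 812, 751 and 908 untreated. In all 3 genes every treated array lay well below every untreated one, and the log2 changes were -2.17 ± 0.49 (adjusted p = 3.5e-04), -2.13 ± 0.28 (adjusted p = 7.9e-09) and -2.11 ± 0.23 (adjusted p = 5.3e-11). Of the small subunit, MRPS8 (uS8m, an early-binding protein of the bacterial small subunit) had 158, 143, 154 and 159 with 3-AT, against 557, 714, 606 and 747 untreated, a change of -2.08 ± 0.22 (adjusted p = 1.4e-11). RSM19 (uS19m, a protein of the subunit's head) had 147, 161, 222 and 187 with 3-AT, against 871, 663, 731 and 626 untreated, a change of -2.02 ± 0.17 (adjusted p = 5.6e-15). Both groups of arrays are again fully apart.

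Genes near the middle of the distribution changed by less than 2-fold. MRPL4 (uL29m, next to the exit of the peptide tunnel in bacteria) had 865, 899, 711 and 695 with 3-AT, against 1368, 1538, 1239 and 1813 untreated, and changed by -0.91 ± 0.26 (adjusted p = 0.0043). MRPL3 (mL44, a protein with an RNase III-like fold) had 394, 478, 429 and 515 with 3-AT, against 736, 1058, 819 and 775 untreated, and its change of -0.89 ± 0.39 missed the threshold (adjusted p = 0.068) although no treated array reached an untreated one. MRPL20 (mL58) behaved likewise, with 735, 876, 850 and 726 with 3-AT against 1406, 1554, 1868 and 1496 untreated and a change of -0.98 ± 0.53 (adjusted p = 0.15). Both genes passed without the 3 arrays. In all, every treated array lay below every untreated array for 54 of the 67 genes, against 18.6% of all probe sets. For MRPL50 (bL9m) no 3-AT array was above background, so its fall is a bound, at least 1.76-fold (adjusted p = 1.4e-04). MRP35 (bL35m), also called lower, was above background on no 3-AT array and on 1 untreated array, so no bound can be given.

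Among the 21 genes that did not pass, 2 had a change at or above 0 in wild type. MRPS17 (uS17m, a primary RNA-binding protein of the small subunit in bacteria) had 602, 575, 716 and 542 with 3-AT, against 506, 681, 587 and 648 untreated, a change of 0.01 ± 0.22 (adjusted p = 0.98). MRP8, of unknown function, had 3213, 2963, 3530.4 and 3558 with 3-AT, against 2121, 1339, 4344 and 2584 untreated, a change of 0.48 ± 0.51 (adjusted p = 0.5). In both genes the groups overlap. The smallest changes below 0 were those of MRP7 (bL27m) at -0.04 ± 0.22, MRP49 (mL61) at -0.20 ± 0.25, MRP51 (bS1m, a protein tied genetically to the leaders of the COX2 and COX3 mRNAs) at -0.28 ± 0.18 and MRPL28 (mL40) at -0.30 ± 0.25. The small subunit had lower counts than the large one in wild type, with 18 of 27 against 28 of 38 called lower and median changes of -0.79 and -0.98. By origin, 17 of the 24 mitochondria-specific and 29 of the 41 bacterial-type proteins had mRNAs called lower, at medians of -0.80 and -0.97. These classes were not tested against each other.

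The fall with 3-AT was seen in every genotype. With 3-AT, the genes called lower numbered 41 in gln3, 46 in gcn2, 45 in gcn4, 44 in gcn4 gln3 and 41 in gcn2 gln3, and none was called higher in any of them. Without the 3 arrays these counts were 53 in gln3 (17.8% of all probe sets), 52 in gcn2 (21.1%), 55 in gcn4 (23.8%), 53 in gcn4 gln3 (22.1%) and 49 in gcn2 gln3 (18.9%). MRP8 was then called higher in gln3 and in gcn4 (30.7% and 38.5% of all probe sets). With all arrays, over all probe sets, falls were called for 9.23% in gln3, 13.1% in gcn2, 15.6% in gcn4, 13.6% in gcn4 gln3 and 11.3% in gcn2 gln3, and rises for 21.4% in gln3, 25.3% in gcn2, 29.4% in gcn4, 28.5% in gcn4 gln3 and 27.9% in gcn2 gln3. The median change of the genes ran from -0.96 in gcn4 to -0.76 in gln3. In all 6 genotypes 32 genes were called lower, in 1 to 5 genotypes 20, and in none 15. Averaged over the 6 genotypes, 60 genes fell and 2 rose (27.7% and 44.8% of all probe sets; 63 and 2 without the 3 arrays, beside 32.2% and 48.9%), the deepest being RSM19 at -2.32 ± 0.07 and MRPL51 at -2.24 ± 0.20. MRPS12, which encodes the decoding-centre protein uS12m and neighbours RSM19 on the chromosome, changed by -0.44 ± 0.18. The genes that rose on average were MRP8 at 0.58 ± 0.21 (adjusted p = 0.011) and MRPS17 at 0.21 ± 0.09 (adjusted p = 0.038), and the MRPS17 value was -0.01 with quantile normalization and -0.04 with median centring of the arrays.

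**Figure D2:**
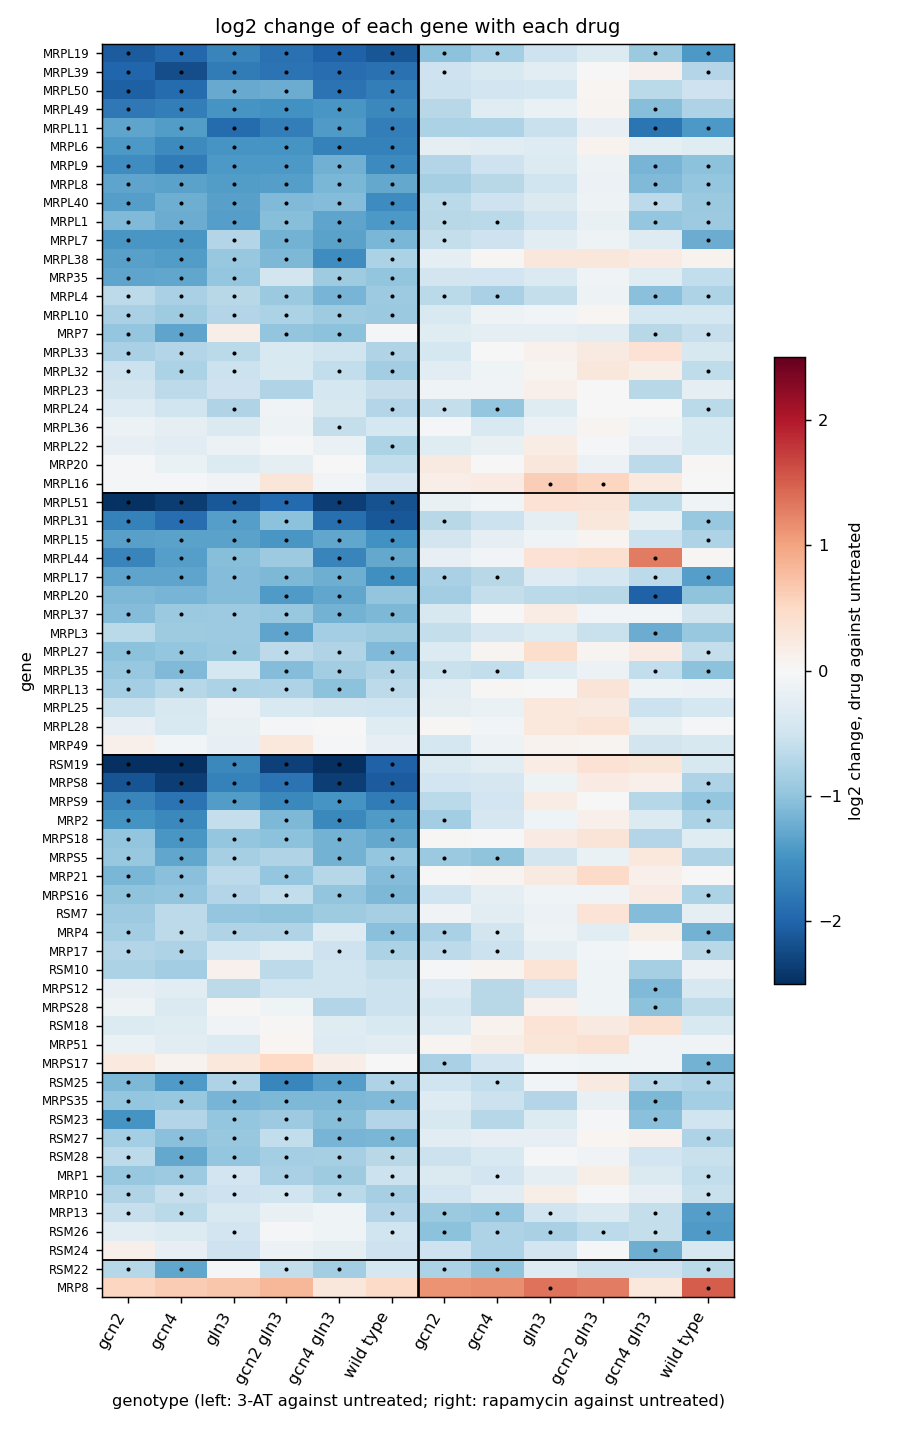
log2 change of each of the 67 genes (rows) with 3-AT against untreated (6 left columns) and with rapamycin against untreated (6 right columns) in each genotype. Blocks from top to bottom are bacterial-type and mitochondria-specific large subunit proteins, bacterial-type and mitochondria-specific small subunit proteins, and the 2 genes without a ribosomal name, each ordered by the mean 3-AT response, and a dot marks an adjusted p under 0.05. Blue (lower) fills most of the 3-AT side in all genotypes. On the rapamycin side it is deeper in wild type than in gln3 and gcn2 gln3, where it is pale. The rapamycin columns of gcn2 gln3 and gcn4 gln3 each include an array with a high actin ratio.

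Whether a mutant responded to 3-AT differently from wild type was tested as a difference of responses (mutant minus wild type). Only 3 such differences passed among the 67 genes over 5 mutants. They were MRP7 in gcn4 (-1.28 ± 0.32, adjusted p = 0.0059), RSM19 in gcn4 gln3 (-0.84 ± 0.24, adjusted p = 0.024) and MRPL31 in gcn2 gln3 (1.08 ± 0.33, adjusted p = 0.037). Over all probe sets, differences in the same direction passed for 3.06% in gcn4, 3.20% in gcn4 gln3 and 2.13% in gcn2 gln3. In gcn2 and gln3 none of the 67 passed, beside 3.42% and 0.0582% of all probe sets. With the 3 arrays left out, 1 gene was lower in gcn2 (5.43% of all probe sets), 3 in gcn4 (6.11%), 3 in gcn4 gln3 (6.58%) and 2 in gcn2 gln3 (5.43%), 2 were higher in gcn4 gln3 (8.52%), and none passed in gln3. MRPL31 in gcn2 gln3 was not among them. Leaving out single arrays, the count in gcn2 gln3 was 0 without replicate 1, 3 or 4 of wild type with 3-AT, replicate 1 or 4 of untreated wild type, or, in gcn2 gln3, replicate 1 with 3-AT or untreated replicate 2, 3 or 4. The count in gcn4 gln3 was 0 without replicate 2 of gcn4 gln3, untreated or with 3-AT.

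The mRNA of MRP7 fell with 3-AT in the 4 strains that lack GCN2 or GCN4 and did not pass in wild type or gln3. Its product, bL27m, has a bacterial counterpart whose end reaches the peptidyl transferase centre. In gcn4 MRP7 had 394, 472, 446 and 514 with 3-AT, against 1081, 1069, 1120.3 and 1263 untreated. In gcn2 it had 580, 482, 419 and 509 with 3-AT, against 1001, 980, 890 and 1017 untreated. In wild type it had 1028, 1027, 710 and 1188 with 3-AT, against 932, 972, 936 and 1163 untreated, so the groups are fully apart in both mutants and overlap in wild type. The gln3 arrays likewise overlapped, with 932, 1039, 960 and 1086 with 3-AT and 1002, 977, 709 and 960 untreated. The double mutants resembled gcn2 and gcn4, with 723, 572, 474 and 393 with 3-AT against 1236, 949, 963 and 1033 untreated in gcn2 gln3, and 605, 586, 479 and 604 against 1274, 1109, 1151 and 1073 in gcn4 gln3. The log2 changes were -1.31 ± 0.22 (adjusted p = 2.3e-06) in gcn4, -0.97 ± 0.22 (adjusted p = 3.8e-04) in gcn2, -1.02 ± 0.22 (adjusted p = 1.6e-04) in gcn4 gln3, -0.98 ± 0.22 (adjusted p = 3.3e-04) in gcn2 gln3, 0.15 ± 0.22 (adjusted p = 0.66) in gln3 and -0.04 ± 0.22 (adjusted p = 0.92) in wild type.

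A contrast chosen after these values were seen set the mean response of the 4 strains that lack GCN2 or GCN4 against that of the 2 strains that have both. It was lower for 4 of the 67 genes and higher for none, beside 6.73% of all probe sets called lower and 8.27% called higher. The 4 were MRP7 at -1.13 ± 0.19 (adjusted p = 8.7e-06), RSM19 at -0.75 ± 0.15 (adjusted p = 1.1e-04), RSM25, which encodes the small subunit protein mS23, at -0.61 ± 0.22 (adjusted p = 0.044), and RSM22, for which no exact difference can be given because no gcn4 array with 3-AT was above background. RSM25 had 103, 177, 133 and 183 with 3-AT against 428, 435, 375 and 314 untreated in gcn4, and 167, 204, 175 and 212 against 339, 270, 350 and 337 in wild type, so it was low with 3-AT in both strains. RSM22 in gcn4 had 103, 103, 45 and 102 with 3-AT against 231, 208, 200 and 186 untreated, a fall of at least 1.81-fold, and in wild type 144, 108, 151 and 159 against 162, 207, 184 and 206, again with no overlap. The median difference over the 67 genes was -0.01, and without the 3 arrays 9 were lower (13.1% of all probe sets) and 3 higher (17.7%), the first 4 among them. Leaving out any 1 of 7 arrays left 2 genes lower, which were replicates 3 and 4 of untreated gln3, replicate 1 of untreated gcn2 gln3 and of untreated gcn4 gln3, replicate 3 of gcn2 and of gcn4 with 3-AT and replicate 4 of wild type with 3-AT. The same contrast for loss of GLN3 passed for none of the 67 with 3-AT (0.524% of all probe sets), or for 1, MRP13, without the 3 arrays (0.859% of all probe sets higher).

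Rapamycin lowered fewer of these mRNAs, with a smaller median change. In wild type 31 of the 67 fell and 1 rose, beside 15.7% and 22.2% of all probe sets. The median change was -0.61 (quartiles -0.88 and -0.39), against 0.14 over all probe sets. With the 3 arrays left out 46 fell and 1 rose, including all 32 of these calls (21.8% of all probe sets fell). Every rapamycin array lay below every untreated one for 39 genes (18.6% of all probe sets).

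MRPL11 and MRPL19, whose products uL10m and uL11m sit at the ribosomal stalk, had the deepest falls with RSM26, MRPL17 and MRP13. MRPL11 had 357, 493, 527 and 271 with rapamycin, against 961, 1266, 1128 and 975 untreated, a change of -1.43 ± 0.53 (adjusted p = 0.028). MRPL19 had 314, 327, 349 and 392 with rapamycin, against the untreated signals given above, a change of -1.43 ± 0.28 (adjusted p = 3.4e-05). RSM26 (mS42, of the superoxide dismutase fold) had 290, 275, 309 and 269 with rapamycin, against 704, 699, 790 and 848 untreated, a change of -1.41 ± 0.19 (adjusted p = 1.3e-08). In each of these genes all 4 treated arrays were below all 4 untreated ones. MRPL17 (mL46) had 396, 494, 526 and 430 with rapamycin, against 1097, 1294, 1249.9 and 1151 untreated, a change of -1.38 ± 0.17 (adjusted p = 1.3e-09). MRP13 (mS44) had 211, 208, 131 and 213 with rapamycin, against 485, 485, 424 and 555 untreated, a change of -1.38 ± 0.16 (adjusted p = 2.3e-10). Neither gene's groups overlap. Near the median stood MRP1 (mS43, also of the superoxide dismutase fold), with 1634, 1362, 1425 and 1434 with rapamycin against 2479.7, 2216, 2146 and 2098 untreated, a change of -0.61 ± 0.19 (adjusted p = 0.0075).

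MRP8 was the 1 gene called higher with rapamycin in wild type. It had 5242, 9443, 7507 and 5707 with rapamycin, against 2121, 1339, 4344 and 2584 untreated, a change of 1.51 ± 0.51 (adjusted p = 0.015). All 4 treated arrays were above all untreated ones, which themselves spread over more than 3-fold. Its change was also above 0 in the 5 mutants and passed in gln3 (1.36 ± 0.51, adjusted p = 0.036). The 27 small subunit genes had 13 falls and a median of -0.63, and the 38 large subunit genes 17 falls and a median of -0.61.

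Both drugs lowered 28 genes in wild type, 3-AT alone passed for 18, rapamycin alone for 3, and 17 were called with neither, and MRP8 rose with rapamycin. The like shares of all probe sets are not given, so this overlap is not read as particular to the 67 genes. Both comparisons share their untreated arrays, so the drugs were set against each other directly, which does not use those arrays. In wild type 16 of the 67 mRNAs were lower with 3-AT than with rapamycin and 3 were higher, beside 15.8% and 19.8% of all probe sets, and the median difference was -0.34. In the fit without those 3 arrays the counts were 30 lower and 4 higher (24.3% and 27.4% of all probe sets), the 19 among them, and leaving out replicate 1 of wild type with 3-AT left 10 lower.

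The largest difference between the drugs was that of MRPL51, which had 186, 334, 299 and 241 with 3-AT and 806, 1490.1, 1067 and 1084 with rapamycin, a log2 difference of -2.07 ± 0.49 (adjusted p = 6.0e-04). RSM19 had 147, 161, 222 and 187 with 3-AT and 612, 499, 540 and 519 with rapamycin, a difference of -1.61 ± 0.17 (adjusted p = 2.2e-11). MRPL6 (uL6m) had 213, 145, 208 and 180 with 3-AT and 380, 507, 591 and 472 with rapamycin, a difference of -1.39 ± 0.21 (adjusted p = 2.2e-07). These 3 genes fell with 3-AT and did not pass with rapamycin, at -0.10 ± 0.49, -0.41 ± 0.17 and -0.30 ± 0.21. For RSM19, however, every rapamycin array lay below every untreated one, and its fall with rapamycin passed in limma without the 3 arrays (adjusted p = 0.029). MRPS8 and MRPL39 (bL33m) fell with both drugs and further with 3-AT, by a difference of -1.31 ± 0.22 (adjusted p = 2.6e-06) and -1.13 ± 0.19 (adjusted p = 2.0e-06).

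With all arrays, the 3 genes that were lower with rapamycin all encode small subunit proteins. MRPS17 had 602, 575, 716 and 542 with 3-AT and 285, 334, 217 and 243 with rapamycin, a difference of 1.19 ± 0.22 (adjusted p = 2.3e-05). RSM26 had 439, 634, 541 and 543 with 3-AT and the rapamycin signals given above, a difference of 0.91 ± 0.19 (adjusted p = 1.1e-04). MRP13 had 302, 306, 292 and 263 with 3-AT, a difference of 0.64 ± 0.16 (adjusted p = 0.0012). No array of 1 drug overlaps the other drug's in these genes. Without the 3 arrays with a high actin ratio MRP7, of the large subunit, was also called, at 0.53 ± 0.14 (adjusted p = 0.0013). In the mutants, more genes were lower with 3-AT than with rapamycin than in wild type: 34 in gln3, 27 in gcn2, 33 in gcn4, 30 in gcn4 gln3 and 40 in gcn2 gln3. Leaving out the 3 arrays gave 47 in gln3 (22.1% of all probe sets), 40 in gcn2 (25.6%), 45 in gcn4 (27.4%), 55 in gcn4 gln3 (23.1%) and 46 in gcn2 gln3 (22.1%), and leaving out only replicate 2 of gcn4 gln3 with rapamycin gave 52 there. These counts were not tested between genotypes. With all arrays, the share of all probe sets lower in the same comparisons was 13.7% in gln3, 16.4% in gcn2, 19.2% in gcn4, 17.5% in gcn4 gln3 and 15.8% in gcn2 gln3.

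**Figure D3:**
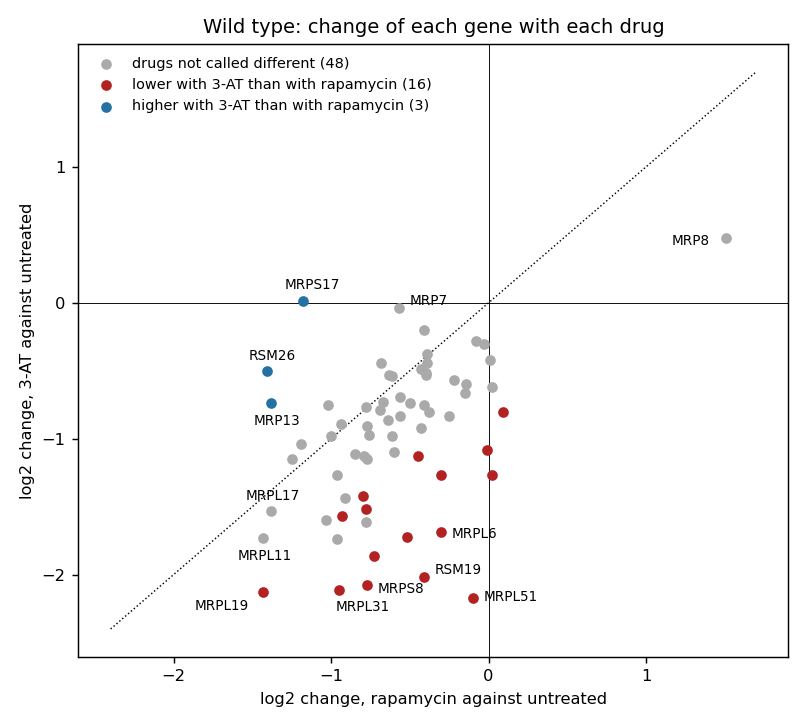
log2 change in wild type with rapamycin (horizontal axis) and with 3-AT (vertical axis), each against the same 4 untreated arrays, for the 67 genes (points). Colour marks genes called lower (16) or higher (3) with 3-AT than with rapamycin, and the dotted line marks equal change. MRPL51, RSM19 and MRPL6 lie far below the line, at -0.41 to -0.10 with rapamycin, MRPS17 lies at no change with 3-AT, and MRP8 lies alone at the upper right.

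Few of these mRNAs fell with rapamycin in gln3 and gcn2 gln3. In gln3 rapamycin lowered 2 of the 67 mRNAs and raised 2 (median -0.13), and in gcn2 gln3 it lowered 1 and raised 1 (median -0.01). In gcn2 it lowered 18 (median -0.45) and in gcn4 14 (median -0.39). With median centring of the arrays, the medians were -0.38 in gln3, -0.13 in gcn2 gln3, -0.58 in gcn2 and -0.60 in gcn4. Over the alternatives listed below, 0 to 22 genes fell in gln3 and 0 to 9 in gcn2 gln3. The ranges were 2 to 37 in gcn2 and 1 to 36 in gcn4. These ranges include a filter that tests only 41 of the 67 genes and a 2-fold threshold. Shares of all probe sets are not given for them. Over all probe sets, rises were called for 21.2% in gln3 and 16.5% in gcn2 gln3, and falls for 10.2% in gln3, 10.5% in gcn2 gln3, 11.8% in gcn2 and 11.9% in gcn4. In gcn4 gln3 the counts were 21 lower and 1 higher (median -0.45, 20.0% and 23.0% of all probe sets), but 7 lower and 3 higher (median -0.03) without the 3 arrays. The 1 gene called higher there, MRPL44 (mL53), had 916, 11419, 1136 and 858 on the 4 arrays, the second being the array with the high actin ratio. With the 3 arrays left out, 15 genes fell in gln3 (16.6% of all probe sets), 9 in gcn2 gln3 (16.6%) and 7 in gcn4 gln3 (17.4%), beside 35 in gcn2 (17.7%), 31 in gcn4 (18%) and 46 in wild type. Leaving out single arrays, 11 genes fell in gcn2 without its untreated replicate 1 and 9 without its replicate 3 with rapamycin, 9 in gcn4 without its replicate 4 with rapamycin, 4 and 0 in gcn2 gln3 without its replicates 1 and 4 with rapamycin, and 34 in gcn4 gln3 without its replicate 3 with rapamycin.

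As a difference of responses to rapamycin (mutant minus wild type), 7 genes were higher in gcn2 gln3, 3 in gcn4 gln3 and 3 in gln3, and none was lower. Over all probe sets, 0.510% were higher and 0.393% lower in gln3, 1.12% and 2.18% in gcn2 gln3, and 1.25% and 2.87% in gcn4 gln3. The median difference was 0.62 in gcn2 gln3 (65 of the 67 genes above 0), 0.50 in gln3 (63) and 0.17 in gcn4 gln3 (40). In gcn2 and gcn4 no gene passed, beside 0.757% and 1.06% of all probe sets, and the medians were 0.15 and 0.27, while 2 genes were higher in gcn4 without the 3 arrays (2.17% of all probe sets), MRP4 and MRPL17. All 5 differences share the wild type arrays. In the fit without the 3 arrays 20 genes passed in gcn4 gln3 (3.25% of all probe sets), 18 in gcn2 gln3 (3.46%) and 14 in gln3 (2.81%). Leaving out single arrays gave 1 gene in gln3 without replicate 4 of untreated wild type, replicate 3 of untreated gln3 or replicate 1 of gln3 with rapamycin. In gcn2 gln3 it gave 2 genes without its replicate 1 with rapamycin, and 4 without replicate 3 or 4 of wild type, with rapamycin or untreated, or without its untreated replicate 2, 3 or 4. In gcn4 gln3 it gave 1 gene without replicate 2 or 4 of untreated wild type or its untreated replicate 2, 5 without its untreated replicate 1, and 8, 15 and 11 without its replicates 1, 2 and 4 with rapamycin.

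MRP4, MRP13 and MRPL17 were the 3 genes called in gln3. MRP4 (uS2m, which joins the bacterial small subunit late in assembly) had 597, 609, 562 and 565 with rapamycin against 715, 800, 486 and 589 untreated in gln3, and 362, 400, 338 and 270 against 702, 695, 799 and 928 in wild type. In gcn2 gln3 it had 812, 797, 644 and 679 with rapamycin against 922, 944, 776 and 911 untreated, and in gcn4 gln3 661, 1219.6, 766 and 676 against 719, 747, 751 and 683. The arrays thus overlap in all 3 strains without GLN3 and are apart in wild type, and the differences from wild type were 1.07 ± 0.25 (adjusted p = 0.016), 0.91 ± 0.25 (adjusted p = 0.021) and 1.34 ± 0.25 (adjusted p = 1.7e-04), in the order gln3, gcn2 gln3 and gcn4 gln3. The signal of 1219.6 in gcn4 gln3 lies on an array with a high actin ratio. Without the 3 such arrays MRP4 changed with rapamycin by -0.05 ± 0.17 in gcn4 gln3 and by -1.19 ± 0.16 in wild type. MRP13 had 353, 296, 310 and 288 with rapamycin against 448, 447, 428 and 429 untreated in gln3, which do not overlap, so it still fell there (-0.50 ± 0.16, adjusted p = 0.014), but by less than in wild type (difference 0.88 ± 0.23, adjusted p = 0.037). MRPL17 had 1172, 821, 889 and 816 with rapamycin against 1087, 1276, 1130.3 and 1105 untreated in gln3, and differed from wild type by 1.05 ± 0.24 (adjusted p = 0.014). For MRPL17 the gln3 arrays overlap, on replicate 1 with rapamycin.

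MRPS17, which in wild type was called with rapamycin and not with 3-AT, had 616, 443, 492 and 339 with rapamycin against 463, 545, 521 and 407 untreated in gln3. Its difference from wild type was 1.12 ± 0.32 in gln3 (adjusted p = 0.075), 1.07 ± 0.32 (adjusted p = 0.043) in gcn2 gln3 and 1.10 ± 0.32 (adjusted p = 0.032) in gcn4 gln3. RSM26 was the 1 gene of the 67 called lower with rapamycin in all 6 genotypes, for which the like share of all probe sets is not given. In gln3 it had 440, 496, 417 and 332 with rapamycin against 736, 778, 788 and 639 untreated, which are fully apart, a change of -0.81 ± 0.19 (adjusted p = 6.2e-04). MRPL16 (uL16m, which contacts transfer RNA in bacteria) rose with rapamycin in gln3, with 796, 645, 647 and 559 against 378, 452, 493 and 392 untreated and no overlap, a change of 0.62 ± 0.18 (adjusted p = 0.0049), and in gcn2 gln3 (0.54 ± 0.18, adjusted p = 0.016). Without the 3 arrays with a high actin ratio, the gcn2 gln3 change was 0.28 ± 0.13 and did not pass in limma (adjusted p = 0.082). In wild type the MRPL16 change was 0.01 ± 0.18 (adjusted p = 0.97). On the gln3 arrays the median log2 signal of all probe sets tested was also higher with rapamycin, at 9.16 to 9.29. The untreated gln3 arrays lay at 8.93 to 9.07. Wild type arrays, on which MRPL16 was not called, lay at 9.12 to 9.23 with rapamycin and 9.0 to 9.17 untreated. Whether this shift bears on the MRPL16 rise was not tested.

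**Figure D4:**
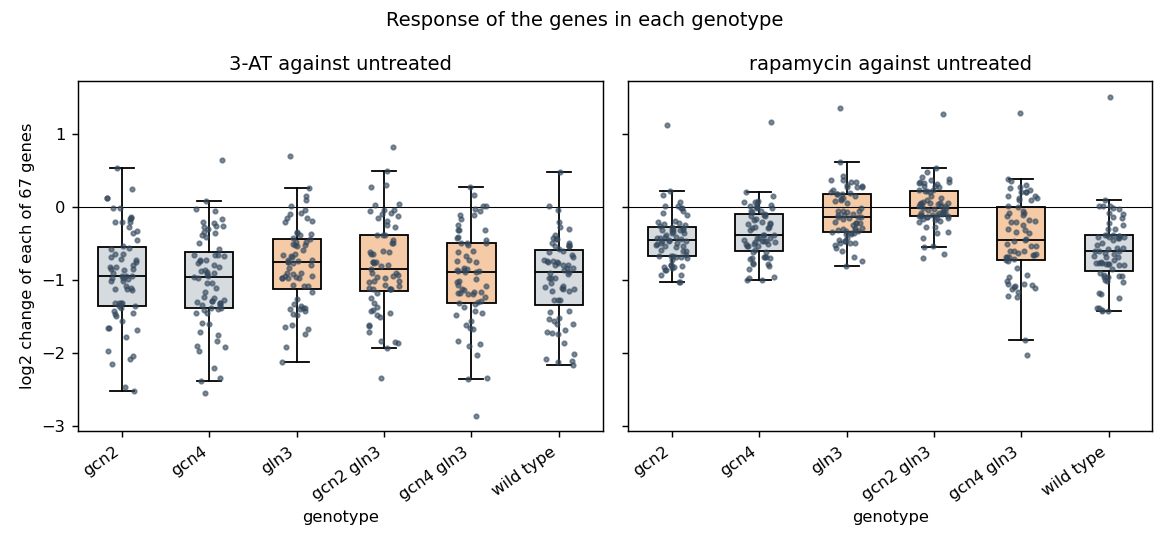
log2 change of each of the 67 genes (points) with 3-AT and with rapamycin against untreated, by genotype. Boxes show the median and quartiles, whiskers reach the farthest point within 1.5 times the box height, and orange boxes are strains without GLN3. The 3-AT boxes lie at like levels, with medians of -0.96 to -0.76. The rapamycin medians are -0.61 in wild type, -0.45 in gcn2, -0.39 in gcn4, -0.13 in gln3 and -0.01 in gcn2 gln3. In gcn4 gln3, also without GLN3, the rapamycin median is -0.45 as plotted and -0.03 without the 3 arrays with a high actin ratio.

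Setting the mean rapamycin response of the 3 strains without GLN3 against that of the 3 strains with it, a contrast also chosen after these values were seen, 10 of the 67 genes were higher and none lower, beside 1.66% and 2.26% of all probe sets. They were MRP4 (0.74 ± 0.14, adjusted p = 4.4e-04), MRP13 (0.60 ± 0.13, adjusted p = 0.0019), RSM19 (0.63 ± 0.14, adjusted p = 0.0026) and MRPS17 (0.74 ± 0.18, adjusted p = 0.0086), with MRPL31, MRPL24, MRPL17, MRP17, MRPS8 and MRPL32, at 0.50 to 0.68. The median over the 67 was 0.29, against -0.03 over all probe sets. Without the 3 arrays 28 genes passed, the 10 among them, the median was 0.36 and all 67 lay above 0 (4.41% of all probe sets higher). Leaving out 1 array at a time gave 6 genes without replicate 1 of gcn2 gln3 with rapamycin and 24 without replicate 2 of gcn4 gln3 with rapamycin. The same contrast for loss of GCN2 or GCN4 passed for none of the 67 (1.98% of all probe sets in either direction), or for 1, MRPS35, without the 3 arrays (1.12% of all probe sets higher).

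Without a drug none of the 67 mRNAs passed in any mutant against wild type (limma). The lowest adjusted p was 0.24, for MRPL38 (uL14m) in gcn4 gln3, with a log2 difference of 0.67 ± 0.24. Over all probe sets, calls in either direction ran from 0.146% in gcn2 to 1.31% in gcn2 gln3, with 0.801% in gln3, 1.19% in gcn4 gln3 and 1.21% in gcn4. The median difference of the 67 lay between -0.07 in gln3 and 0.19 in gcn4 gln3. Leaving out the 3 arrays, 1 gene was higher in gcn2 gln3 (1.22% of all probe sets) and 2 in gcn4 gln3 (1.54%).

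**Figure D5:**
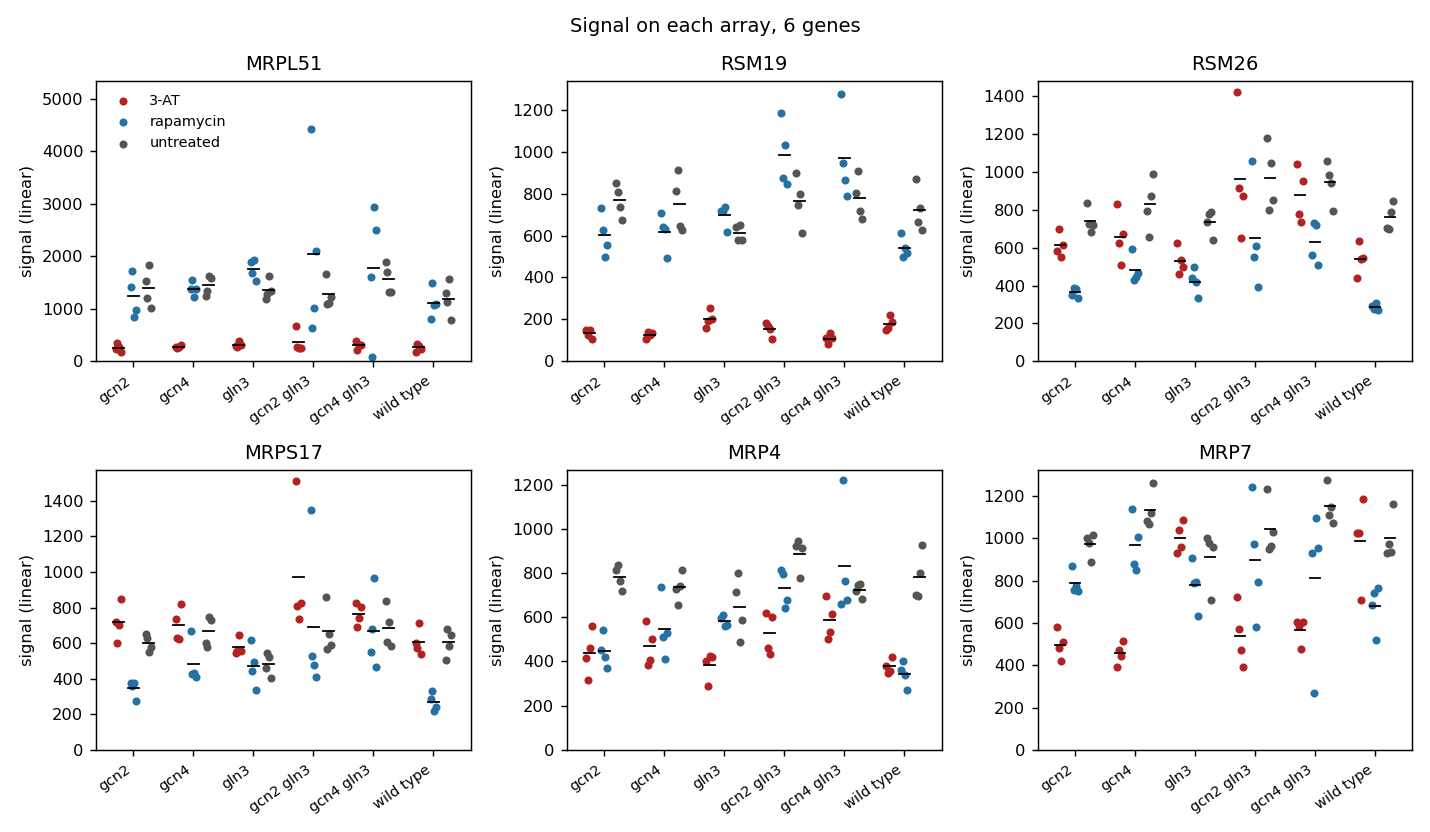
Signal on each array (points, linear scale from 0) with the mean of 4 arrays (line) for 6 genes, by genotype and treatment. MRPL51 and RSM19 are low with 3-AT in every genotype, RSM26 was called lower with rapamycin in every genotype, and MRPS17 in wild type and gcn2. MRP4 with rapamycin is low in wild type (270 to 400) and not in gln3 (562 to 609), and MRP7 with 3-AT is at 394 to 514 in gcn4, against 710 to 1188 in wild type.

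Mitochondrial ribosomal proteins whose symbols fall outside the pattern were counted separately. Of 12 tested, 9 fell with 3-AT and 7 with rapamycin in wild type, at medians of -0.85 and -0.67, beside 13.6% and 15.7% of all probe sets. With 3-AT the falls were IMG1 (-1.62 ± 0.26), FYV4 (-1.48 ± 0.24), MNP1 (-1.32 ± 0.38), SWS2 (-1.19 ± 0.21), RML2 (-0.99 ± 0.21), RTC6 (-0.87 ± 0.32), IMG2 (-0.83 ± 0.22), YML6 (-0.78 ± 0.26) and NAM9 (-0.59 ± 0.22), while PET123 (-0.59 ± 0.26), MHR1 (-0.42 ± 0.27) and EHD3 (-0.18 ± 0.35) did not pass. VAR1, the ribosomal protein encoded in mitochondrial DNA, was above background on at most 1 of 72 arrays and was not tested.

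Other genes of mitochondrial gene expression moved less uniformly in wild type. Over all probe sets, 13.6% fell and 22.2% rose with 3-AT, and 15.7% fell and 22.2% rose with rapamycin. Some of the counts below lie near these shares, and none was tested against them. Of 15 translation and assembly factors, 6 fell and 1 rose with each drug, and with 3-AT the elongation factors MEF1 (-2.11 ± 0.26) and MEF2 (-1.75 ± 0.18) fell, as did the recycling factor RRF1, which was above background on no 3-AT array and has no exact value. Of 16 mitochondrial aminoacyl-tRNA synthetase and amidotransferase genes, 6 fell with 3-AT, and 3 fell and 1 rose with rapamycin. Among 14 activators of single mitochondrial mRNAs, CBP6 fell with 3-AT (-2.05 ± 0.29) and AEP1, PET54 and ATP22 rose (0.55 to 1.26), as did SOV1, which was above background on no untreated array and has no exact value, and 1 fell and 3 rose with rapamycin. Of 10 genes of mitochondrial DNA maintenance and transcription, 4 fell and 2 rose with 3-AT, and 3 fell with rapamycin. Of 24 import genes, 14 fell and 1 rose with 3-AT, and 12 fell and 1 rose with rapamycin, and of 15 cytochrome oxidase assembly genes, 6 fell with 3-AT, and 3 fell and 1 rose with rapamycin.

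Genes of the cytosolic ribosome and of the respiratory chain moved in other proportions. The shares of all probe sets called in the same comparisons are those given above. Cytosolic ribosomal proteins with a probe set of their own fell further with rapamycin, with 78 of 80 called lower (median -2.61), than with 3-AT, with 38 lower (median -0.76). Compared directly, 75 of these 80 were higher with 3-AT than with rapamycin and none lower, while 3 of the 67 mitochondrial ones were higher and 16 lower. The 30 ribosome biogenesis genes were like the cytosolic proteins, with 24 higher with 3-AT than with rapamycin. Respiratory chain and ATP synthase genes went the other way, with 22 of 35 lower with 3-AT than with rapamycin, COX12 at -2.49 ± 0.23 among them. Of those 35, 17 fell with 3-AT, and none fell and 3 rose with rapamycin. In gln3 rapamycin still lowered 77 of the 80 cytosolic ribosomal protein mRNAs (median -1.87) and 25 of the 30 biogenesis mRNAs, beside 2 of the 67 (15 without the 3 arrays). The difference of responses from wild type had a median of 0.71 for the 80 and 0.76 for the 30, beside 0.50 for the 67, and 4 of the 80, 1 of the 30 and 3 of the 67 were called higher. In the contrast for loss of GLN3, 27 of the 80 were higher (median 0.50), none of the 30 (median 0.14) and 10 of the 67 (median 0.29).

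Regulators known to act on ribosomal or mitochondrial genes were measured on the same arrays. With 3-AT in wild type, mRNAs of the retrograde factor RTG3 (2.22 ± 0.25), of GLN3 (1.76 ± 0.17), of the respiratory activator subunit HAP4 (1.24 ± 0.36), of the ribosome regulator SFP1 (1.22 ± 0.28) and of GCN2 (0.62 ± 0.20, on the probe set that kept signal in the GCN2 deletions) rose. With rapamycin those of RTG3 (1.30 ± 0.25), HAP5 (1.07 ± 0.40), GLN3 (1.02 ± 0.17) and HAP2 (0.76 ± 0.22) rose. GCN4, HAP1, HAP3, RTG1, IFH1 and FHL1 passed with neither drug. PUF3, which encodes an RNA-binding protein that promotes decay of many mRNAs of mitochondrial proteins, was above background on 1 of 72 arrays and was not tested.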

How the data were processed

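RNA was hybridised to 72 Affymetrix yeast arrays, 1 colour each, 4 for each of 18 groups. The deposited values are linear intensity, made by the authors with GCOS and the MAS5 algorithm per the submitters' processing notes (versions: not given in the sources used here). The array means with 2% trimmed at each end lay between 1000.6 and 1001.2. The labels do not say whether the 4 replicates are separate cultures, so each p-value reflects only how far these samples spread, which may be technical, and the number of arrays limits the precision.

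Intensities below 16.491 (the 10th percentile) were set to it and log2 was taken. A probe set was tested if above the 30th percentile of its array (66 to 136.7) on at least 4 arrays, and the brightest probe set stood for a gene, which left 6869 probe sets. Of 9335 probe sets, 6504 had 1 gene symbol, 328 several and 2443 none in the platform annotation, and 60 were controls. The 18 group means were fitted with limma 3.58.1 in R 4.3.3 (54 residual degrees of freedom), and p-values were adjusted by Benjamini and Hochberg over all probe sets within a contrast. Calls are at an adjusted p under 0.05. Tested on simulated data for 3-AT in wild type, the fit recovered 57% of 100 changes of 1 and 93% of 100 changes of 2 on the log2 scale. A gene above background on no array of 1 group has only a bound, from the mean of that group's detection limits.

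The members and gene lists were chosen with earlier results of these data known. Values per array are given for the members with the largest falls and rises with each drug in wild type, those that did not follow the others, those with the smallest p in a difference from wild type and those nearest the median. A few others, such as MRPL20, RSM25 and MRP1, were chosen after their values were seen. Alternatives were the floor, scaling, filter, fit, weights, replicate block, left-out arrays and a 2-fold threshold. Promoter motifs were not analysed here, since no sequence was used. Replicate numbers were not taken to pair samples.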

Additional observations from a re-analysis of the deposited data

Results flagged for a closer look

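In groups of 4 arrays, 1 array stood far from the other 3 in 12 of 124 groups examined, and chance gives about 1 in 20, or 6.2. Among the medians of the 67 genes these were 10.27 in untreated gcn2 gln3, 7.86 in gcn4 gln3 with rapamycin and 9.09 in gln3 with 3-AT, on the log2 scale. Among single genes they were signals of 131 for MRP13 in wild type with rapamycin, 375 for MRPL17 in wild type with 3-AT, 709 for MRP7 in untreated gln3, 479 for MRP7 in gcn4 gln3 with 3-AT and 1269 for MRPL31 in untreated gcn2 gln3. The others were 11419.4 for MRPL44 in gcn4 gln3 with rapamycin, 45 for RSM22 in gcn4 with 3-AT (below background on all 4 arrays), 270 for RSM25 in untreated wild type and 744 for MRPL6 in untreated wild type.

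Responses differed between genotypes by a test of the difference for the following genes. The contrasts for loss of GCN2 or GCN4 and for loss of GLN3 were chosen after these values were seen. Over all probe sets, 6.73% were called lower in the first and 1.66% higher in the second. For strains without GCN2 or GCN4 against those with both, the 3-AT response differed by -1.13 for MRP7, -0.75 for RSM19, -0.61 for RSM25 and -0.63 for RSM22, whose gcn4 arrays with 3-AT all lay below background, so that its size is not exact. For strains without GLN3 against those with it, the rapamycin response differed by 0.74 for MRP4, 0.74 for MRPS17, 0.68 for MRPL31, 0.65 for MRPL24, 0.63 for RSM19, 0.62 for MRPS8, 0.60 for MRP13, 0.54 for MRP17, 0.51 for MRPL32 and 0.50 for MRPL17.

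Against wild type, the 3-AT response differed by 1.08 for MRPL31 in gcn2 gln3, -1.28 for MRP7 in gcn4 and -0.84 for RSM19 in gcn4 gln3. The MRPL31 difference did not pass without the 3 arrays with a high actin ratio. Leaving out any of several single arrays also removed it, and some single arrays removed that of RSM19. The rapamycin response in gln3 differed by 1.07 for MRP4, 1.05 for MRPL17 and 0.88 for MRP13. In gcn2 gln3 it differed by 1.24 for MRPL31, 1.12 for MRPL7, 1.07 for MRPS17, 1.02 for MRP13, 0.96 for MRPL17, 0.93 for MRPL32 and 0.91 for MRP4. In gcn4 gln3 it differed by 1.34 for MRP4, 1.10 for MRPS17 and 0.78 for MRP13.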

How the results depend on the processing

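Of the values of single genes under the alternatives, 6620 kept their direction and side of the threshold, 390 newly passed, 304 no longer passed and 8 reversed. The reversed ones were MRPS17 averaged over genotypes with 3-AT (-0.01 with quantile normalization, -0.04 with median centring), MRP20 averaged with rapamycin (0.16 with array weights), and, in the GLN3 contrast with rapamycin, RSM7 (0.42), MRPS12 (0.44) and MRPL3 (0.36) without the 3 arrays and RSM7 (0.39) and MRPS12 (0.36) with array weights. Genes lower with 3-AT numbered 28 in wild type and 36 on average when only probe sets above background on all arrays were used. That strict filter tests 41 of the 67 genes. With the main filter and 2-fold also required, 28 and 26 genes were lower. Apart from the fit without the 3 arrays, the like shares of all probe sets under the alternatives are not given. Genes lower with rapamycin numbered 10 in wild type at 2-fold and 47 with array weights, and on average 25 under the strict filter and 0 at 2-fold, where limma's unthresholded count was 41. Genes lower with 3-AT than with rapamycin in wild type numbered 9 under the strict filter, 9 at 2-fold, 32 with array weights, 27 with only the arrays compared and 30 without the 3 arrays. The GLN3 contrast gave 0 genes at 2-fold (10 with no fold threshold), 32 with array weights, 5 with only the arrays compared and 28 without the 3 arrays.

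Scaling moved the median of all probe sets, which was 0.09 to 0.20 with 3-AT as deposited. The 3-AT medians of the 67 genes in gln3, gcn2, gcn4, gcn4 gln3 and gcn2 gln3 became -1.0, -1.18, -1.24, -1.16 and -1.14 with median centring, -0.98, -1.20, -1.21, -1.18 and -1.08 with quantile normalization and -0.59, -0.75, -0.77, -0.74 and -0.65 under the strict filter. With rapamycin, centring and quantile normalization gave -0.58 and -0.58 in gcn2, -0.60 and -0.59 in gcn4 and -0.38 and -0.36 in gln3. In gcn2 gln3 the rapamycin median was -0.13 with centring and -0.16 without the 3 arrays, and in gcn4 gln3 -0.20 under the strict filter, -0.12 with array weights and -0.03 without the 3 arrays. Medians of 3-AT against rapamycin were -0.34 in gcn2 under the strict filter and -0.93 and -0.92 in gcn2 gln3 with centring and quantile normalization. In gcn4 gln3 they were -0.80 with array weights, -0.74 with centring, -0.64 with quantile normalization and -0.85 without the 3 arrays. The rapamycin difference from wild type had medians of 0.49 with array weights and 0.48 without the 3 arrays in gcn2 gln3, of 0.50, 0.54 and, with centring, 0.31 in gcn4 gln3, and of 0.36 with centring in gln3.

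Leaving out 1 replicate or array gave 9 to 21 genes lower with 3-AT than with rapamycin in wild type, 2 to 24 in the GLN3 contrast and 15 to 36 lower with rapamycin in wild type. Medians ran from -1.03 to -0.88 for 3-AT, -0.67 to -0.03 for rapamycin and -0.89 to -0.27 for 3-AT against rapamycin in gcn4 gln3, and from -0.16 to 0.08 for rapamycin in gcn2 gln3. The rapamycin difference from wild type ran from 0.48 to 0.73 in gcn2 gln3 and from -0.03 (without replicate 3) to 0.56 in gcn4 gln3. The cause of these moves was not tested.

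Same-numbered replicates had deviations correlated at a median r of 0.251 (612 pairs, -0.468 to 0.88), against -0.0739 for different numbers (1836 pairs), and were not taken as pairs. With the replicate block, 49 genes were lower with 3-AT and 36 with rapamycin in wild type, 18 were lower with 3-AT than with rapamycin, and 12 were higher in the GLN3 contrast. Dim genes limit precision, since 26 of the 67 were below background on some arrays.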
